A study of Mus musculus with 8 samples.

Results

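Imprinted genes are expressed mainly from the copy inherited from the mother or from the father, and many of them act in growth before and around birth. The values described here are those of 10 such genes that have been studied in growth and in muscle regeneration, namely *H19*, *Meg3*, *Rian*, *Mirg*, *Dlk1*, *Peg3*, *Plagl1*, *Mest*, *Zdbf2* and *Grb10*. They were chosen by name from a table of 55401 genes, in which each had 1 row. Bulk RNA-seq was performed on 4 tibialis anterior (TA) muscles from mdx5cv mice and 4 from wild-type (WT) mice. All mice carried the C57/Bl6 background and were 6 mo old, and the labels name no other allele and no treatment. The mdx5cv mouse is a model of Duchenne muscular dystrophy (DMD) in which a *Dmd* mutation present in every cell disturbs splicing of the dystrophin transcript, so the loss is not restricted to muscle fibers and is lifelong. *Dmd* itself, which checks the labels, averaged 6954 ± 857 normalized counts (SD, n = 4) in WT and 3964 ± 388 in mdx5cv muscles, with no overlap between the groups.

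In the embryo, imprinted genes lie in clusters that share a control region, and members of a cluster may be expressed from opposite parental copies. Many fall silent or become weak in skeletal muscle after birth, and several are known to rise when muscle fibers regenerate. *H19* was not silent in the WT muscles here, where it averaged 1722 normalized counts. *H19*, *Meg3*, *Rian* and *Mirg* are long noncoding RNAs of the maternal copy. *Dlk1*, *Peg3*, *Plagl1*, *Mest* and *Zdbf2* encode proteins and are expressed from the paternal copy, and *Grb10* is maternal in most tissues and paternal in neurons. The mice were of a single inbred background and the files hold a total per gene, so the parental copies were not told apart here.

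A normalized count is the number of reads on a gene divided by a size factor for the library. Each gene was tested on log2(normalized count + 1) with limma over the 13677 genes that averaged 10 normalized counts or more, and was called when the adjusted p was under 0.05 and the log2 fold change was at least 1 in either direction. Of the 10 genes, 9 passed this filter and *Dlk1* did not. 6 of the 9 were called higher in mdx5cv muscle (*H19*, *Mirg*, *Peg3*, *Plagl1*, *Mest* and *Zdbf2*), against 10.3% of all genes tested. None was called lower, against 3.27% of all genes tested. By the adjusted p alone, 8 of the 9 were higher, against 20.9% of all genes, and in 7 of the 9 every mdx5cv muscle lay above every WT muscle, against 20.3%. The median log2 fold change of the 9 genes was 1.30, while that of all genes tested was 0.00.

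**Figure D1:**
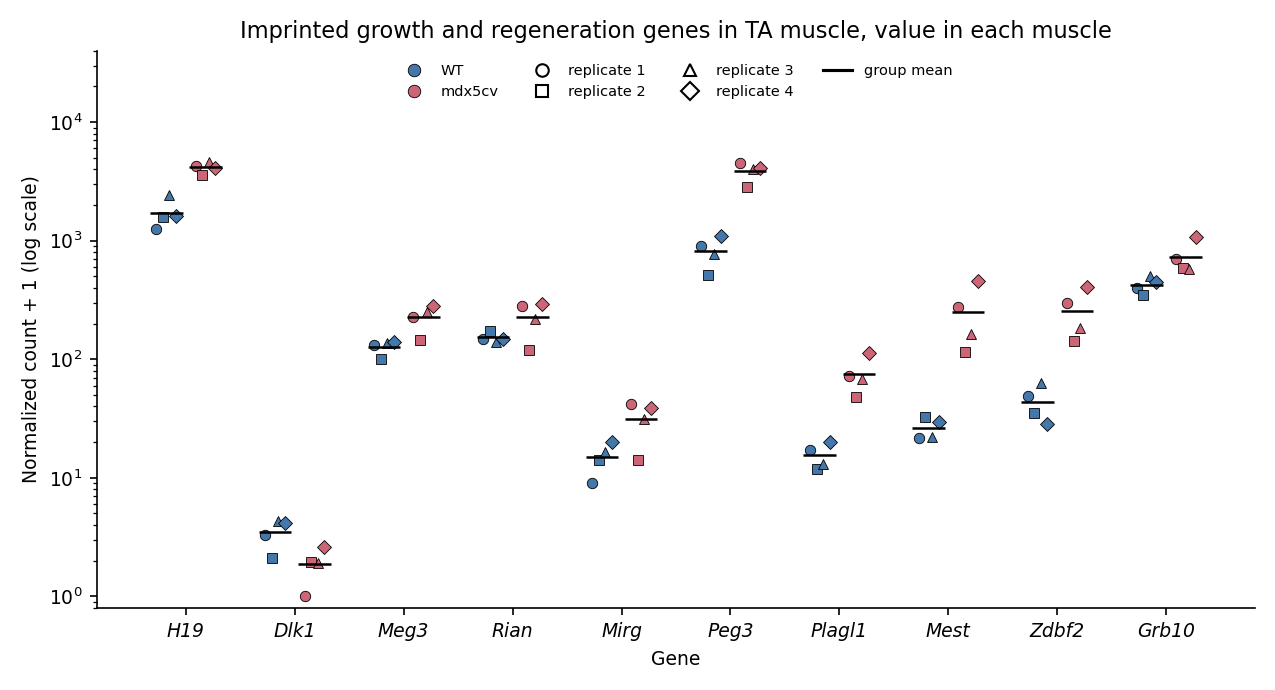
Normalized count + 1 (log scale) of each of the 10 imprinted genes in each TA muscle, with WT in blue, mdx5cv in red, a marker shape for each replicate and a line at each group mean (n = 4). The groups do not overlap for *H19*, *Meg3*, *Peg3*, *Plagl1*, *Mest*, *Zdbf2* and *Grb10*, the mdx5cv square (replicate 2) of *Rian* and *Mirg* lies among or beside the WT markers, and *Dlk1* stays at 3.32 normalized counts or less in every muscle.

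Several of these transcripts carry small RNAs. RefSeq on GRCm38.p6 places 39 mature miRNAs, from 21 miRNA genes, within the bounds and on the strand of *H19*, *Meg3*, *Rian*, *Mirg* or *Mest*, and 26 of the 39 lie in *Mirg*. A miRNA recognizes its targets mainly through its seed, bases 2 to 8 from the 5′ end, and the 39 miRNAs held 38 different seeds. The sequences below show those of the hosts that rose most or are best known, and the only pair that shared a seed, miR-453 and miR-496a-5p of *Mirg*. They are written 5′ to 3′ with the seed in capitals.
miR-675-5p in *H19*: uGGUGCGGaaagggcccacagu
miR-675-3p in *H19*: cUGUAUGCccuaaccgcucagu
miR-335-5p in *Mest*: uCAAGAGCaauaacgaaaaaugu
miR-770-5p in *Meg3*: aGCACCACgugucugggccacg
miR-370-3p in *Rian*: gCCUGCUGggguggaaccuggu
miR-453 in *Mirg*: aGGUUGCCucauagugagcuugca
miR-496a-5p in *Mirg*: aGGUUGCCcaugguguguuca

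The libraries were made from total RNA without selection of small RNA, so the mature miRNAs were not measured. The rows of these miRNA genes held between 0 and 10 reads in all 8 libraries together. *Mir675* had 0 reads and *Mir335* had 6. The values below are those of the host transcripts and say nothing of the level of the miRNAs.

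Among the paternally expressed genes, *Mest*, which encodes a protein of the alpha/beta hydrolase fold found at the endoplasmic reticulum, had the largest fold change. *Mest* (chr6:30723547-30748465, plus strand, GRCm38) was at 20.6, 31.8, 21.01 and 28.6 normalized counts in WT replicates 1 to 4. In mdx5cv replicates 1 to 4 it was at 273, 113, 161 and 456. No mdx5cv value overlapped the WT range, and within mdx5cv the highest value, in replicate 4, was about 4 times the lowest, in replicate 2. The means were 25.5 ± 5.58 and 251 ± 152 (SD, n = 4), with a log2 fold change of 3.07 (SE 0.34, adjusted p = 2.0e-05).

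*Zdbf2*, a zinc finger gene whose paternal expression in the embryo sets later growth, rose in the same muscles. *Zdbf2* (chr1:63273265-63314576, plus strand) was at 48.1, 34.0, 61.9 and 27.5 normalized counts in WT. The mdx5cv muscles had 296, 142, 181 and 406. Replicate 4 was again the highest and replicate 2 the lowest, and the groups did not overlap. The means were 42.9 ± 15.3 and 256 ± 119 (SD, n = 4), and the log2 fold change was 2.50 (SE 0.31, adjusted p = 4.9e-05).

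*Peg3* encodes a large zinc finger protein that has been used to mark adult tissue progenitors, satellite cells of muscle included. *Peg3* (chr7:6703892-6730431, minus strand) was at 905, 516, 775 and 1100 normalized counts in WT. It was at 4532, 2824, 4013 and 4119 in mdx5cv. Relative to its mean, *Peg3* varied less among the mdx5cv muscles than *Mest* or *Zdbf2* did, and every value was above the WT range. The means were 824 ± 245 and 3872 ± 733 (SD, n = 4), with a log2 fold change of 2.26 (SE 0.20, adjusted p = 5.1e-06).

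*Plagl1*, also called *Zac1*, encodes a zinc finger transcription factor that controls other imprinted genes in the embryo. *Plagl1* (chr10:13060504-13131694, plus strand) had 16.0, 10.97, 12.2 and 19.1 normalized counts in WT and 71.3, 47.2, 66.6 and 111 in mdx5cv. It was a weak gene in WT muscle, and the lowest mdx5cv value was more than 2 times the highest WT value. The means were 14.6 ± 3.70 and 74.1 ± 26.8 (SD, n = 4), with a log2 fold change of 2.23 (SE 0.27, adjusted p = 4.1e-05).

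*H19* had the highest mean normalized count of the 10 genes in both groups, though *Peg3* was above it in mdx5cv replicates 1 and 4. *H19* (chr7:142575529-142578143, minus strand) was at 1245, 1596, 2445 and 1604 normalized counts in WT. The mdx5cv muscles had 4237, 3591, 4645 and 4095. The groups did not overlap and the mdx5cv values were close together. Its means were 1722 ± 510 and 4142 ± 435 (SD, n = 4), and the log2 fold change was 1.30 (SE 0.17, adjusted p = 6.9e-05), smaller than those of the 4 paternally expressed genes above in point estimate.

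*Grb10* encodes an adaptor that binds the activated insulin and IGF1 receptors and dampens their signal. *Grb10* (chr11:11930508-12038683, minus strand) was at 397, 349, 502 and 451 normalized counts in WT. It had 702, 582, 573 and 1067 in mdx5cv. The highest WT value and the lowest mdx5cv value were close, but the groups did not overlap. The means were 425 ± 66.4 and 731 ± 232 (SD, n = 4). *Grb10* passed the adjusted p and not the minimum fold, with a log2 fold change of 0.75 (SE 0.18, adjusted p = 0.0055).

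**Figure D2:**
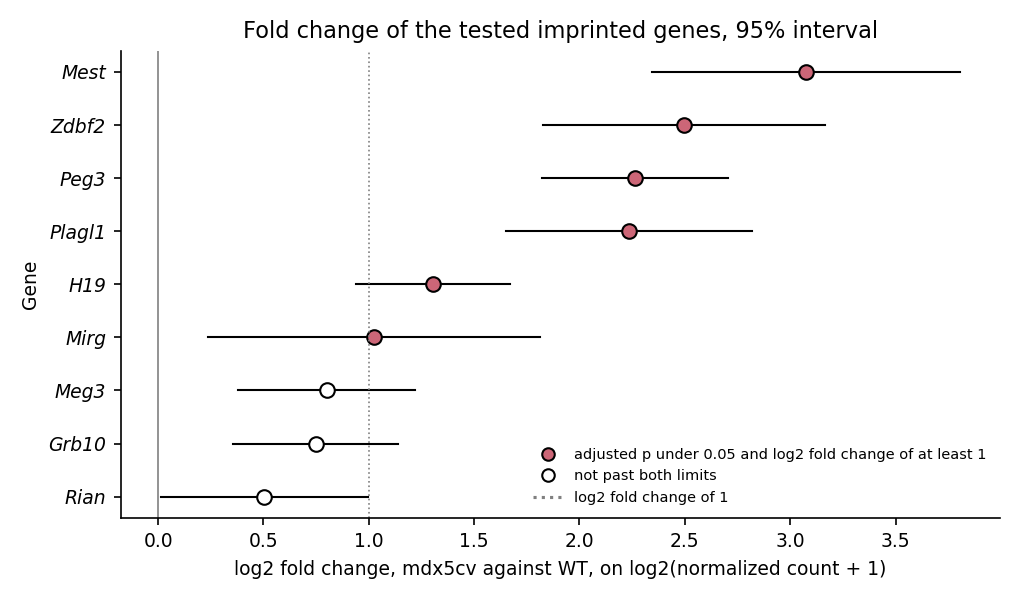
The log2 fold change (mdx5cv against WT, on the log2(normalized count + 1) scale) of the 9 tested genes, with its 95% interval from limma (n = 4 per group). *Mest* is highest at 3.07 and *Rian* lowest at 0.50. Filled points passed both limits, and the dotted line marks a log2 fold change of 1.

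The remaining 4 genes lie in a single cluster on chromosome 12, the *Dlk1*-*Dio3* domain, whose maternal copy is transcribed through *Meg3*, *Rian* and *Mirg* in that order. *Meg3* (chr12:109541001-109571726, plus strand) was at 132, 98.7, 137 and 138 normalized counts in WT and at 224, 143, 251 and 283 in mdx5cv. The lowest mdx5cv muscle, replicate 2, was just above the highest WT muscle. The means were 126 ± 18.6 and 225 ± 59.7 (SD, n = 4), and *Meg3* passed the adjusted p and not the minimum fold (log2 fold change 0.80, SE 0.19, adjusted p = 0.0053).

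*Rian* hosts small nucleolar RNAs as well as miRNAs. *Rian* (chr12:109603940-109661716, plus strand) had 148, 173, 138 and 148 normalized counts in WT, and 282, 120, 219 and 290 in mdx5cv. The mdx5cv replicate 2 muscle was below all WT muscles while the other three were above them. The means were 152 ± 15.0 and 228 ± 78.6 (SD, n = 4), and the difference did not pass the test (log2 fold change 0.50, SE 0.23, adjusted p = 0.095). Without mdx5cv replicate 2, the log2 fold change was 0.78 with an adjusted p of 0.0011, still under the minimum fold.

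*Mirg*, which holds most of the miRNAs counted above, was the weakest of the called genes. *Mirg* (chr12:109729764-109749460, plus strand) had 8.02, 13.2, 15.5 and 19.1 normalized counts in WT, from 7, 12, 14 and 18 reads. It had 40.8, 13.2, 30.6 and 37.6 in mdx5cv, from 44, 14, 34 and 47 reads. Replicate 2 of mdx5cv lay within the WT range. The means were 13.9 ± 4.63 and 30.5 ± 12.3 (SD, n = 4), with a log2 fold change of 1.02 (SE 0.37, adjusted p = 0.038). This call was at the limit and was lost when any of WT replicates 1, 2 and 3 or mdx5cv replicates 1, 3 and 4 was left out, with adjusted p from 0.056 to 0.12 in these fits.

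*Dlk1*, a transmembrane protein related to the Notch ligands and known from fetal and regenerating muscle, was at the edge of detection. In libraries of 13175524 to 14921057 reads over both groups, *Dlk1* (chr12:109452823-109463336, plus strand) had 2, 1, 3 and 3 reads in WT and 0, 1, 1 and 2 in mdx5cv. These counts allow no fold change, and a difference was not detectable at this depth. The annotation of GENCODE M21 places 120 genes of the table between the start of *Begain* and the end of *Dio3*, and 55 of them had any read. Only 5 passed the filter, and *Mirg*, whose call was at the limit, was the only one called. Of all genes tested, 10.3% were called higher. The transcripts *Gm37899* and *B830012L14Rik*, which lie between *Rian* and *Mirg*, had log2 fold changes of 0.58 (SE 0.36, adjusted p = 0.22) and 0.88 (SE 0.43, adjusted p = 0.12). Per muscle, the 69 miRNA genes of the interval held 2 to 37 reads in all, and its 23 small nucleolar RNA genes held 1 to 6.

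The proportions among the 3 maternal transcripts were also compared. The ratio of *Rian* to *Meg3* normalized counts was 1.24 ± 0.346 (SD, n = 4) in WT and 0.997 ± 0.191 in mdx5cv. That of *Mirg* to *Meg3* was 0.111 ± 0.0354 and 0.132 ± 0.0373. Both ratios overlapped between the groups and were not tested.

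Levels of different genes were set roughly side by side per kilobase of exon. The length counted every annotated exon of a gene, so a value is too low where the transcript present is shorter. On this scale, *H19* was at 700 ± 207 normalized counts in WT (SD, n = 4) and 1684 ± 177 in mdx5cv. *Peg3* followed at 61.8 ± 18.4 and 291 ± 55.0, and *Grb10* at 46.7 ± 7.31 and 80.4 ± 25.5. In WT, the values of *Peg3* and *Grb10* overlapped, and in mdx5cv they did not. *Mest* went from 6.47 ± 1.41, just below *Meg3* and overlapping it, to 63.6 ± 38.6, just below *Grb10* and overlapping it. *Zdbf2* moved from 3.39 ± 1.21 to 20.2 ± 9.43. *Rian* and *Meg3* overlapped each other in both groups, at 8.33 ± 0.823 and 6.98 ± 1.03 in WT and at 12.5 ± 4.31 and 12.5 ± 3.30 in mdx5cv. *Plagl1* and *Mirg* were at 1.86 ± 0.474 and 1.91 ± 0.635 in WT, with overlap, and at 9.47 ± 3.43 and 4.19 ± 1.69 in mdx5cv, without it. *Dlk1* was last in both groups.

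The neighbours of these genes in the same imprinted domains were examined next. *Peg3* is transcribed away from *Usp29*, a paternally expressed gene related to deubiquitinases, and GENCODE M21 leaves 146 bases between their starts. The stretch is shown because the transcripts on either side of it both rose. It lies at chr7:6730432-6730577 (GRCm38.p6, RefSeq), is written on the minus strand in the direction of *Peg3*, and has its 5 CpG pairs, the sites of DNA methylation, in capitals.
Between *Usp29* and *Peg3*: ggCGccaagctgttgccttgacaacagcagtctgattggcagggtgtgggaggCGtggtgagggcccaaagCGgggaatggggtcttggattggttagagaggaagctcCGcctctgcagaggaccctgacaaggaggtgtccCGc

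*Usp29* was at 21.8, 7.68, 23.2 and 20.1 normalized counts in WT and at 91.7, 34.9, 69.3 and 54.3 in mdx5cv. Its log2 fold change was 1.75 (SE 0.35, adjusted p = 0.0017), and the groups did not overlap. *Zim1*, a zinc finger gene beyond the other end of *Peg3* that is maternally expressed in the embryo, was at 80.2, 63.6, 85.1 and 84.7 in WT and at 279, 205, 325 and 304 in mdx5cv, with a log2 fold change of 1.80 (SE 0.16, adjusted p = 4.9e-06). Of the genes of this domain that were examined, the 3 with any read were thus called higher, and *Zim3* and *Zfp264* had no read in any library. Other transcripts of the domain were not examined. The ratio of *Usp29* to *Peg3* was 0.0218 ± 0.00662 in WT (SD, n = 4) and 0.0158 ± 0.00367 in mdx5cv, with overlap and not tested.

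The domain of *H19* was not uniform. *Igf2*, the paternally expressed growth factor gene that shares enhancers with *H19*, had 1, 0, 1 and 5 reads in WT and 25, 13, 9 and 27 in mdx5cv. Every mdx5cv muscle was above every WT muscle, but the mean was under the filter for limma. DESeq2 on the reads gave a log2 fold change of 3.09 (adjusted p = 0.00039). *Nctc1*, a noncoding RNA transcribed from the enhancer region beyond *H19*, was at 2018 to 2242 normalized counts in WT and 1512 to 2383 in mdx5cv, and did not pass the test (log2 fold change -0.05, SE 0.14, adjusted p = 0.81).

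Next to *Mest*, *Copg2*, which encodes a coat protein of Golgi vesicles, was at 209 to 233 normalized counts in WT and 191 to 239 in mdx5cv (log2 fold change -0.01, SE 0.11, adjusted p = 0.94). Its 95% interval ran from -0.26 to 0.24, and *Klf14* had at most 4 reads in any library. Beside *Grb10*, the actin nucleator gene *Cobl* was at 272 to 414 in WT and 530 to 603 in mdx5cv, with a log2 fold change of 0.60 (SE 0.13, adjusted p = 0.0032), under the minimum fold like *Grb10* itself. *Ddc*, an enzyme of amine synthesis, was at 1.11 to 4.58 in WT and 8.49 to 19.2 in mdx5cv and was not tested by limma (DESeq2 log2 fold change 1.96, adjusted p = 0.013).

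In the domain of *Zdbf2*, *Gpr1* (now *Cmklr2*), a chemerin receptor gene, went the other way. It had 4.58, 10.97, 13.3 and 4.24 normalized counts in WT and 1.85, 0, 2.70 and 2.40 in mdx5cv, with no overlap (DESeq2 log2 fold change -2.23, adjusted p = 0.025). *Adam23*, further along, did not pass the test (log2 fold change 0.20, SE 0.26, adjusted p = 0.59). Among the outer genes of the *Dlk1*-*Dio3* domain, *Begain* was at 0 to 1.15 in WT and 4.79 to 10.8 in mdx5cv (DESeq2 log2 fold change 3.601, adjusted p = 0.013), *Dio3* overlapped between the groups, and *Rtl1* had no read.

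**Figure D3:**
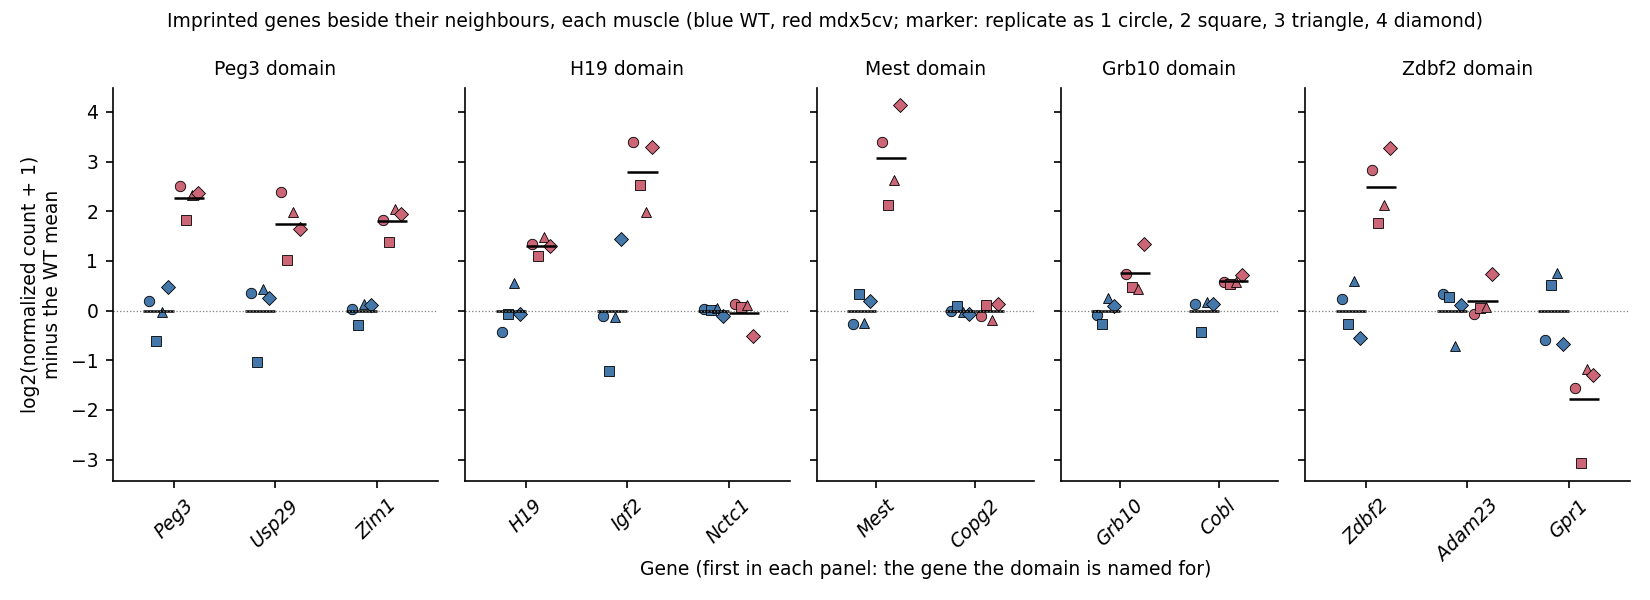
Each muscle's log2(normalized count + 1) minus the WT mean for an imprinted gene and its neighbours, with WT in blue, mdx5cv in red, marker shapes for replicates 1 to 4 and black lines at group means. *Peg3*, *Usp29* and *Zim1* rise together, while *Nctc1* and *Copg2* stay near 0 beside *H19* and *Mest*. *Igf2* and *Gpr1* rest on few reads and were not tested by limma.

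Some members act on or with named partners. For *Igf2* and *Grb10*, the clearance receptor gene *Igf2r*, itself imprinted, was at 1717 to 1877 normalized counts in WT and 1912 to 2496 in mdx5cv, with a log2 fold change of 0.28 (SE 0.10, adjusted p = 0.046). The receptor genes *Igf1r* (0.27, SE 0.11, adjusted p = 0.064) and *Insr* (-0.21, SE 0.10, adjusted p = 0.11) and the substrate gene *Irs1* (-0.09, SE 0.13, adjusted p = 0.59) did not pass the test. For *Dlk1*, neither *Notch1* (log2 fold change 0.11, SE 0.11, adjusted p = 0.43) nor the Notch target *Hes1* (-0.42, SE 0.20, adjusted p = 0.10) passed. Of the genes of the IGF2 mRNA binding proteins, *Igf2bp1* had 1 read in all, *Igf2bp2* did not pass (1.498, SE 0.60, adjusted p = 0.062), and *Igf2bp3* was at 7.74 to 12.6 in WT and 0 to 1.598 in mdx5cv, with no overlap (DESeq2 adjusted p = 0.0012).

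The wider class of imprinted genes was described with a written list of 74 other symbols, of which 71 were in the table and 44 passed the filter. Of the 44, 6 were called higher (*Usp29*, *Zim1*, *Tnfrsf23*, *Peg10*, *Gatm* and *Cdkn1c*) and 3 lower (*Asb4*, *Slc38a4* and *Nnat*). That is 13.6% higher against the 10.3% of all genes, and 3 of 44 lower against 3.27%, and the median log2 fold change of the list was 0.03, beside 1.30 for the 9 genes above. By the adjusted p alone, 14 of the 44 were higher, against 20.9% of all genes, and 9 were lower, against 20.1%. A further 7 genes of the list had no read in any library.

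Among those called, *Gatm*, the first enzyme of creatine synthesis, rose from 44.5 ± 3.84 to 188 ± 112 normalized counts (SD, n = 4; log2 fold change 1.896, SE 0.28, adjusted p = 0.00019). *Tnfrsf23*, a decoy receptor gene, rose from 28.8 ± 5.56 to 91.5 ± 23.5 (1.62, SE 0.21, adjusted p = 8.2e-05). *Cdkn1c*, the cyclin-dependent kinase inhibitor p57, rose from 92.7 ± 29.1 to 191 ± 52.6 (1.03, SE 0.23, adjusted p = 0.0031), but mdx5cv replicate 2 overlapped the WT values.

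In the other direction, *Slc38a4*, a paternally expressed amino acid transporter gene, fell from 750 ± 196 to 216 ± 63.0 normalized counts (SD, n = 4; log2 fold change -1.80, SE 0.21, adjusted p = 3.0e-05). *Asb4*, a subunit gene of ubiquitin ligases, fell from 120 ± 15.3 to 33.0 ± 15.8 (-1.91, SE 0.25, adjusted p = 6.9e-05). For both, every mdx5cv muscle was below every WT muscle. *Peg10*, from the same cluster as *Asb4*, was called in the opposite direction (log2 fold change 2.18, SE 0.30, adjusted p = 0.00012). *Nnat*, a paternally expressed gene of the nervous and endocrine systems, had a log2 fold change of -1.97 (SE 0.66, adjusted p = 0.029) with overlap between the groups.

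*Plagl1* is known as a hub of an embryonic network of imprinted growth genes, and 9 genes of that network outside the 10 had been listed. Of these, 8 were tested and *Igf2* was under the filter. The 2 called higher were *Cdkn1c* and *Gatm*, against 10.3% of all genes tested. The 1 called lower was *Slc38a4*, against 3.27%. Whether so short a list differs from all genes was not tested. *Igf2r* passed the adjusted p alone. *Dcn* (log2 fold change -0.24, adjusted p = 0.43), *Gnas* (0.11, adjusted p = 0.47), *Ndn* (0.18, adjusted p = 0.65) and *Sgce* (0.07, adjusted p = 0.80) did not pass the test.

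The mdx5cv muscles were not alike, and the imprinted genes largely ordered them in the same way. Of the 9 tested genes, 6 were highest in mdx5cv replicate 4, 2 in replicate 1 and 1 in replicate 3, and 8 were lowest in replicate 2. After each group was centred on its own mean, the log2 values of 35 of the 36 pairs of genes were positively correlated over the 8 muscles. Pearson's r ranged from -0.12 (*H19* and *Plagl1*) to 0.87 (*Rian* and *Mest*), with a median of 0.56. *H19* stood apart with low values in most of its pairs. These correlations are a description, since all of the genes were measured in the same 8 libraries and share their tissue makeup. Neither the order of the muscles nor the correlations were counted over all genes, so neither is shown to be particular to imprinted genes.

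The summed markers of regenerating fibers (*Myh3*, *Myh8*, *Mymk*, *Mymx*, *Myog* and *Chrng*) were at 118 to 143 normalized counts in WT and at 4814, 2175, 3000 and 8502 in mdx5cv replicates 1 to 4, and 6 of 6 were called higher. They too were lowest in replicate 2 and highest in replicate 4, as were the summed fibroblast markers given below. Their group-centred correlation with each gene over the 8 muscles was 0.90 for *Mest*, 0.88 for *Grb10*, 0.83 for *Plagl1* and *Zdbf2*, 0.80 for *Rian*, 0.75 for *Meg3*, 0.66 for *Mirg*, 0.47 for *Peg3* and 0.14 for *H19*, given as a description. In whole muscle, a change in the number of cells of a type and a change in RNA per cell cannot be told apart.

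Markers of other cell types moved as well. Macrophage markers summed to 355 to 547 normalized counts in WT and 1906 to 4626 in mdx5cv (6 of 6 called higher). Fibroblast markers summed to 5365 to 8125 in WT and 17679 to 31691 in mdx5cv (3 of 6). In this list, mean *Col1a1* rose from 780 to 6996 and *Col3a1* from 1485 to 12659, and *Lum* was also called. *Pdgfra* and *Dpt* passed the adjusted p and not the minimum fold, and *Dpt* overlapped between the groups. *Dcn* did not pass (log2 fold change -0.24, adjusted p = 0.43). Satellite cell markers summed to 376 to 475 in WT and 508 to 669 in mdx5cv, with 1 of 5 tested called higher (*Vcam1*). *Pax7* passed the adjusted p and not the minimum fold (log2 fold change 0.91, limma adjusted p = 0.0093), with no overlap. *Myf5*, *Chodl* and *Sdc4* did not pass. Muscle fiber markers, the check of the labelled tissue, summed to 1012186 to 1225687 in WT and 713627 to 1105146 in mdx5cv, and 0 of 7 were called. *Ckm* (log2 fold change -0.75), *Actn3* (-0.64) and *Tnnt3* (-0.63) were lower by the adjusted p alone, with no overlap between the groups. *Acta1*, *Myh4*, *Myh1* and *Mylpf* did not pass. No defining marker of these lists was at 0 in all libraries. Endothelial markers summed to 2513 to 3045 in WT and 1536 to 1968 in mdx5cv. Each of them was lower by the adjusted p alone, with no overlap between the groups (log2 fold change from -0.88 for *Tek* to -0.61 for *Cdh5*). Endothelial (0 of 5 called), adipocyte (3 of 4 lower), Schwann cell (1 of 4 lower) and erythrocyte (1 of 4 lower) markers had no gene called higher. The same group-centred correlations were also high with other lists. For *Mest* they were -0.90 with muscle fiber, 0.83 with macrophage, 0.76 with fibroblast and 0.70 with satellite cell markers. For *Grb10* they were 0.76 with macrophage and -0.88 with erythrocyte markers, and for *Rian* 0.72 with fibroblast markers. The part of these cell types in the values of the imprinted genes was not tested.

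**Figure D4:**
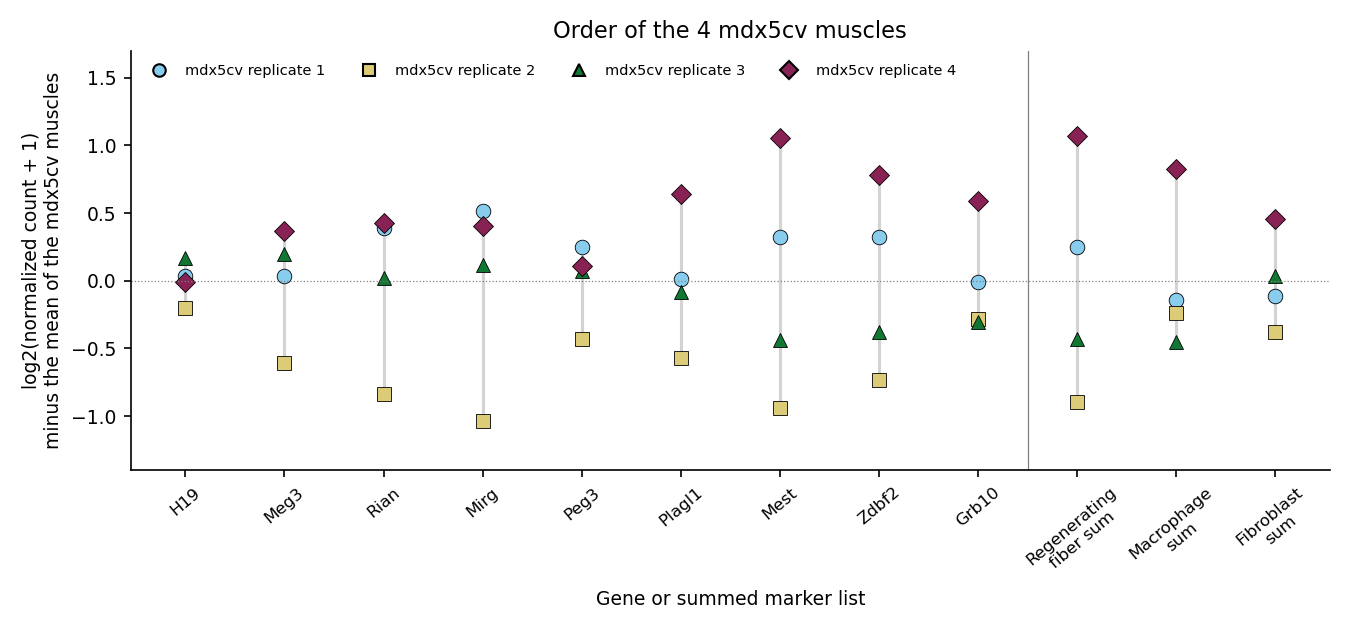
The 4 mdx5cv muscles, each as log2(normalized count + 1) minus the mean of the 4, for the 9 tested genes and for the summed markers of regenerating fibers, macrophages and fibroblasts. Replicate 2 (square) is lowest for 8 of the 9 genes and for the regenerating fiber and fibroblast sums. Replicate 4 (diamond) is highest for 6 of the 9 and for all 3 sums. *H19* and *Peg3* spread least.

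The genes most like each member were taken from the 7641 genes that averaged 100 normalized counts or more, by the same group-centred correlation over 8 muscles. *Plagl1* was most like *Col6a1*, a collagen VI gene (r = 0.98), *Mest* most like the dynein light chain gene *Dynll1* (r = 0.98), and *Grb10* most like the lysosomal protease gene *Lgmn* (r = 0.98). *Zdbf2* was most like *Zfc3h1* (r = 0.98), *Peg3* like *Pdgfb* (r = 0.99), *Meg3* like *Tbc1d20* (r = 0.99), *Rian* like *Usp31* (r = 0.96), *Mirg* like *Slc15a4* (r = 0.96) and *H19* like *Otud1* (r = 0.97). They are the top values of a wide search and carry no p. Of these 9 genes, *Col6a1* (log2 fold change 1.71, adjusted p = 1.5e-06) and *Lgmn* (2.17, adjusted p = 5.7e-06) were called themselves.

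RefSeq promoter windows, 250 bases before to 50 after each start, were found for 9 of the 10 genes, in 14 windows. *H19* had none. CpG pairs per window ranged from 0 (*Rian*) to 45 (*Grb10*), with a median of 13, beside 7 for all 32851 windows. Motifs were searched on both strands after earlier results were known. The E-box CAGCTG, to which myogenic factors bind, was in 1 of the 14 windows (*Mest*), against 16.3% of all windows. The cAMP response element TGACGTCA was in 3 of the 14, those of *Meg3*, *Zdbf2* and *Peg3*, against 1.79% of all windows, and it was chosen after these sequences had been seen. The TATA box TATAAA was in 1 of the 14 (*Meg3*), against 13.6%. Matches to different motifs did not overlap.

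The windows that hold TGACGTCA are shown, as TGACGTCA was the only one of these motifs found in more than 1 of the genes. It was picked from these same sequences, so its recurrence is not evidence of a shared element. The lines for *Meg3* and *Zdbf2* give the 100 bases before the start, and that for *Peg3* the bases around the match, which is 178 bases before its start. Capitals mark TGACGTCA, and in *Meg3* also TATAAA, read on both strands. They lie at chr12:109540896-109540995 (plus strand), chr1:63273169-63273268 (plus strand) and chr7:6730579-6730608 (minus strand) of GRCm38.p6. The *Peg3* stretch lies within *Usp29* as GENCODE M21 places it (chr7:6730578-6967219, plus strand), beside its start. The match is 57 bases before the start in *Meg3* and 59 in *Zdbf2*. A match describes the letters and does not show binding.
*Meg3*: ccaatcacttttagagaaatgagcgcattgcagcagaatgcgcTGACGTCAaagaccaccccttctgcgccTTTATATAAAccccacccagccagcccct
*Zdbf2*: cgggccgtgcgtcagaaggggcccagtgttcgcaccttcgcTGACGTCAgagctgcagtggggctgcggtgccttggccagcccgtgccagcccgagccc
*Peg3*: actgactccgtTGACGTCAactccgtgcct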

How the data were processed

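TA muscles of mdx5cv and WT mice, 4 muscles per group, were analysed by total RNA-seq, with groups taken from the sample titles. Separate mice per muscle are not stated, so p-values measure the spread between these samples. The authors deposited a signal per gene, each library's reads scaled by a size factor. The submitters' processing notes name FastQC, Trim Galore 0.6.4, STAR 2.6.0c, SAMtools 1.9, featureCounts, MultiQC 1.6, DESeq2 1.26.0, R 3.6.2 and mm10. The kit was stranded, and the strand setting of the counting is not given in the sources used here, so overlapping antisense genes may share reads.

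Whole reads were recovered for 100% of values (tolerance 0.01 reads), giving 13862559 to 14921057 reads in WT and 13175524 to 14502624 in mdx5cv. Replicates differed by more than sampling noise (chi-square per degree of freedom 9.55 to 43.2). The fold change was tested with limma 3.58.1 (R 4.3.3, lmFit, eBayes with a variance trend, two-sided, Benjamini-Hochberg) on log2(normalized count + 1) for genes with a mean of at least 10, and understates changes of low genes. A gene was called when the adjusted p was under 0.05 and the log2 fold change reached 1 either way. DESeq2 1.42.0 and edgeR 4.0.16 on the reads, other scalings, filters and pseudocounts and leaving out each muscle were alternatives, and the scripts were tested on simulated data. limma called 1861 genes, edgeR 1907 and DESeq2 2494 among 19647 genes. Of the table's IDs, 55141 were in GENCODE M21 with versions ignored.

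The genes, lists and tests were chosen with earlier results of these data known. Named genes were the 10 members, their domain neighbours and partners, the 6 called genes of the list of other imprinted genes with the largest absolute fold change and a mean of at least 50, the imprinted network, and the most alike gene of each member. *Usp29* is named as a neighbour, and *Peg10*, *Nnat*, *Gm37899* and *B830012L14Rik* were named after their values were seen.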

Additional observations from a re-analysis of the deposited data

Results flagged for a closer look

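The *Meg3* value of WT replicate 2 was far from those of the other WT muscles. It was 6.64 on the log2(normalized count + 1) scale, or 98.7 normalized counts, while the other three lay between 7.05 and 7.12. It was 1 of 20 sets of 4 muscles examined, and chance alone flags about 1 in 20. Without WT replicate 2, the log2 fold change of *Meg3* was 0.69 (limma adjusted p = 0.016). The cause was not tested.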

How the results depend on the processing

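Over 19 alternatives, *Mest*, *Zdbf2*, *Peg3*, *Plagl1* and *H19* were called higher in every fit, *Rian* in none, and no gene changed direction. *Mirg* lost its call in 10 of 18 fits (adjusted p from 0.0042 to 0.12 over all), and it also fell below 10 normalized counts in WT replicate 1 so the filter on every sample removed it. Scaling to equal totals shifted the median over all genes to a log2 fold change of 0.36 and brought *Meg3* (1.16) and *Grb10* (1.10) past the minimum fold, as did leaving out mdx5cv replicate 2 for *Meg3* (1.001). The count of members called higher ranged from 5 to 8, and from 5 to 7 without 1 muscle. For the other imprinted genes, the count higher was 10 with DESeq2, 10 with no filter and 14 by the adjusted p alone, and the count lower was 9 by the adjusted p alone. DESeq2 and the fit without a filter test more genes. With the replicate number as a block (replicate block), 6 members were higher and 0 lower, and 6 and 3 of the other imprinted genes. Muscles of the same number had r of their deviations from 0.031 to 0.15, against -0.15 to 0.074 for muscles of different numbers. Of 8 muscles, 5 were most alike their own number. The sample titles state no pairs, so the main fit did not take the numbers as pairs. Depth limits *Dlk1*, *Igf2*, *Gpr1*, *Begain* and the miRNA and small nucleolar RNA genes most.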
